A study of Caenorhabditis elegans with 4 samples.

Results

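Peaks of the transcription factor NHR-11 on chromosome III of Caenorhabditis elegans numbered 289 in the list of ChIP replicate 1, 282 in that of replicate 2 and 744 in the list deposited for the series as a whole. They were taken by chromosome name alone, as 1315 of the 11225 entries in the 3 lists. Replicate peaks that overlapped by 1 bp or more were merged, which gave 182 shared regions on III out of 1212 on all chromosomes. The remaining peaks were kept as separate layers. Of these, 106 were listed in replicate 1 alone, 100 in replicate 2 alone, and 382 in the series list with no replicate peak under them.

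Both ChIP libraries came from hermaphrodites of strain OP305 at the third larval stage, L3, grown at 20 °C. All animals carried the mutation unc119(ed3) and the transgene wgIs305, which is listed as nhr-11::TY1 EGFP FLAG with an unc119 marker. The protein mapped is thus a fusion of NHR-11 to a green fluorescent protein (GFP) and a FLAG tag. The transgene entered by particle bombardment, and the strain was outcrossed 3 times. The listed genotype leaves the endogenous nhr-11 gene as it is. Worms were fixed with 2% formaldehyde and chromatin was precipitated with antibodies to GFP. The 2 input libraries made alongside were not analysed here. RefSeq places the endogenous nhr-11 on chromosome IV and unc-119 on chromosome III, but the labels do not say where the bombarded transgene inserted, so it could lie on III. Whole animals were used, so the cells in which a site was bound are not known, and whether the replicates were grown separately is not stated.

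Nuclear hormone receptors bind DNA through a zinc-finger domain that reads short half-sites, and many are switched by small lipophilic ligands. Nematodes have a much expanded family of them, whose better-known members act in metabolism, moulting and developmental timing. Chromosome III is an autosome. In this species the middle of an autosome is gene-dense and recombines little, while its arms recombine more and hold more repeats. In ChIP-seq, a peak is a stretch where fragments from the precipitate pile up over the control, and its edges mark the pile and not the bound base.

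Each deposited peak has a start, an end and 1 significance value from the program PeakSeq, for which the lowest value is the strongest. These values are the authors'. They mix enrichment with the number of reads, which the files do not give, so sequencing depth is unknown and values rank peaks within a list only. Where values of both replicates are given for a region, they show its level in each list and not which replicate was stronger. Coordinates are those of WormBase WS220. The lists on III end at values of 0.000965, 0.000978 and 0.000966 for replicate 1, replicate 2 and the series, just inside 0.001. Peaks had a median width of 283 bp in replicate 1 (interquartile range 192 to 402 bp), 308 bp in replicate 2 (213 to 414 bp) and 259.5 bp in the series list (141 to 392 bp). They covered 0.680%, 0.704% and 1.68% of the 13.8 Mb of III, whose length was set to its last listed position. Intervals on percentages below are exact 95% binomial intervals, which cover counting error over peaks only.

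The first question was which sites on III were listed in both replicates. Nearly 2 in 3 were, and the strongest almost without exception. A replicate 2 peak lay under 183 of the 289 replicate 1 peaks (63.3%, 57.5 to 68.9%), against 55.3% over all chromosomes. In replicate 2 the count was 182 of 282 (64.5%, 58.6 to 70.1%), against 62.9% over all chromosomes. The replicate 1 share was between 49.6% and 58.6% on the other chromosomes and the replicate 2 share between 55.5% and 67.0%. No test set III against them, and the replicate 2 share is close to its background.

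Overlaps were mostly deep. The shallowest shared pair, at 10908366 to 10908721, overlapped by 37 bp. Just outside the rule, a replicate 2 peak at 9585943 to 9586082 and a replicate 1 peak at 9586181 to 9586252 lay 98 bp apart. A single series peak, at 9586077 to 9586252 (9.31e-07), touched both of them. In 181 of the 182 regions each replicate had 1 peak. The exception, at 13716823 to 13717685, held 2 peaks of replicate 1 (2.56e-05 and 0.000248) under 1 of replicate 2 (5.49e-08).

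Sharing followed strength. When the III peaks of replicate 1 were cut into 4 equal parts by value, 70 of the 73 strongest (95.9%, 88.5 to 99.1%) were shared, then 56 of 72 (77.8%), 30 of 72 (41.7%) and, in the weakest part, 27 of 72 (37.5%, 26.4 to 49.7%). Replicate 2 gave 68 of 71 (95.8%, 88.1 to 99.1%), 52 of 71 (73.2%), 36 of 70 (51.4%) and 26 of 70 (37.1%, 25.9 to 49.5%). In both lists the share was lower in each weaker part, and the same order held over all chromosomes. There the 4 parts had shares of 94.4%, 63.8%, 38.3% and 24.8% in replicate 1. In replicate 2 they had 97.5%, 70.9%, 49.1% and 33.9%. The parts were cut within III or over the whole list, so their value limits differ. The strongest part ended at 2.58e-07 on III and 6.31e-07 over all in replicate 1, and at 8.26e-08 and 2.03e-07 in replicate 2. With that limit, the strongest part of III was near its background in both lists. In replicate 1 the second and weakest parts of III had intervals (66.4 to 86.7% and 26.4 to 49.7%) above 63.8% and 24.8%, a difference that was not tested. The 38 strongest replicate 1 peaks on III (13.1% of 289) were all shared, as were the 45 strongest of replicate 2 (16.0% of 282). Over all chromosomes it was the 237 strongest of 2197 (10.8%) and the 159 strongest of 1939 (8.20%). Such a run stops at 1 unshared peak, so these shares do not compare III with the rest.

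**Figure D1:**
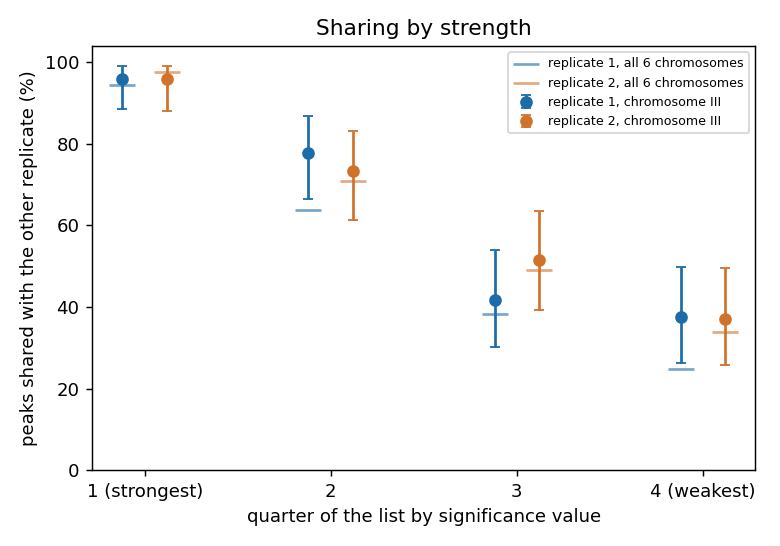
Percentage of peaks shared with the other replicate, by part of the list (4 equal parts, strongest to weakest). Points are chromosome III peaks with exact 95% binomial intervals and dashes are all 6 chromosomes, each cut into its own 4 parts, so value limits differ. On III the share went from 95.9% to 37.5% in replicate 1 and from 95.8% to 37.1% in replicate 2.

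Width followed the same order. Shared peaks had a median width of 327 bp in replicate 1 and 348.5 bp in replicate 2, whereas peaks of 1 replicate alone had medians of 162.5 bp and 236 bp. None of the 17 replicate 1 peaks under 50 bp was shared (0 to 19.5%), and none of the 12 in replicate 2 (0 to 26.5%). Over all chromosomes 5.64% and 8.18% of such peaks were shared, which lies within both intervals. Among peaks of 400 bp or more, 62 of 73 in replicate 1 (84.9%) and 62 of 80 in replicate 2 (77.5%) were shared, against 84.7% and 82.6% over all chromosomes. Wider peaks also had stronger values, with a Spearman's rho between width and −log10 value of 0.52 across the 289 replicate 1 peaks and 0.55 across the 282 of replicate 2.

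**Figure D2:**
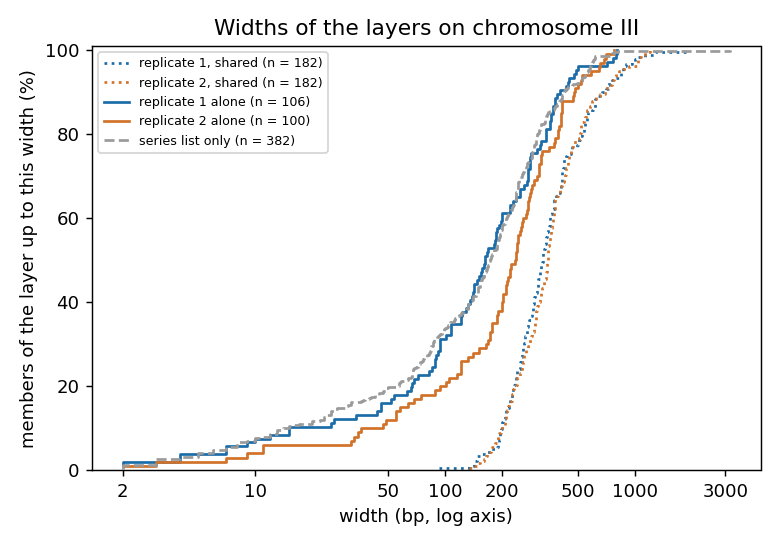
Cumulative percentage of members up to a given width (bp, log axis). Dotted lines show the strongest shared peak of each region in each replicate, solid lines the peaks of 1 replicate alone and the dashed line series peaks with no replicate peak. Shared peaks lie to the right, with medians of 327 bp or more, and 75 of the 382 series-only peaks are under 50 bp.

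The second question was which regions of III had the strongest values, and whether the replicates ranked them alike. Regions were ordered by the sum of their places among the 182 shared regions in each replicate. A set of 5 regions, delimited after the values were seen, stood well clear of the rest. Their values ran from 1.13e-58 to 3.19e-33 in replicate 1 and from 2.55e-62 to 1.36e-37 in replicate 2. The next 15 ran from 2.71e-25 to 6.10e-12 and from 1.49e-23 to 6.56e-12, so neither replicate had a value of the first set overlapping the second. The median over the remaining 162 was 5.12e-06 in replicate 1 and 3.95e-06 in replicate 2.

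First in both replicates was the region at 4237589 to 4238156 (568 bp), with values of 1.13e-58 and 2.55e-62. Its edges differed by 10 bp at the start and 1 bp at the end. Over all chromosomes it was at place 5 of the replicate 1 list and place 3 of the replicate 2 list. It was also the strongest III peak of the series list (2.14e-106).

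Second in both was the region at 3866895 to 3867768 (874 bp; 1.14e-49 and 4.63e-45). The region at 10758944 to 10759377 (434 bp) followed, with 1.37e-38 and 7.59e-40. It was narrower than both regions before it, and its replicate peaks coincided over 96.5% of its span. Next came the region at 4281627 to 4282667 (1041 bp), with 1.74e-45 in replicate 1, 1.36e-37 in replicate 2 and starts 247 bp apart. A further shared region, at 4283072 to 4283510, began 404 bp after it ended. The fifth region, at 7854416 to 7854817 (402 bp), had 3.19e-33 and 2.72e-38, and its starts and ends differed by 2 and 7 bp. These 5 regions held 15.7% of the summed −log10 values of all shared regions in replicate 1 and 15.3% in replicate 2.

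Places 6 to 10 by summed place went to regions between 349 and 1166 bp wide. At 8043729 to 8044109 the values were 2.71e-25 and 2.87e-21. The region at 8801404 to 8802569 had 1.55e-18 and 2.87e-21, and it belongs to a dense group described further on. The other three lay closer to the left end, at 4487231 to 4487638 (6.73e-16 and 1.56e-22), 4899665 to 4900102 (9.18e-18 and 7.43e-19) and 4475451 to 4475799 (1.76e-17 and 2.60e-17).

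Of places 11 to 20 by summed place, 4 lay in the right part of the chromosome. The region at 12612261 to 12612940 was at place 17 in replicate 1 (9.86e-15) and place 6 in replicate 2 (1.49e-23). The region at 12904912 to 12905331 was at place 7 in replicate 1 (1.68e-19) and place 18 in replicate 2 (6.89e-15). At 13062174 to 13063162 the places were 11 and 29 (3.47e-17 and 6.56e-12). The region at 13463398 to 13465312, at places 13 and 16 (1.84e-16 and 4.18e-15), was the widest shared region on III at 1915 bp. The 6 others were at 8799675 to 8800806, 1924859 to 1925715, 1920974 to 1921858, 5018107 to 5018483, 8795442 to 8796156 and 5678888 to 5679276. Within the first 20 the places of a region differed between replicates by at most 18, a range that choosing them by summed place favours.

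**Figure D3:**
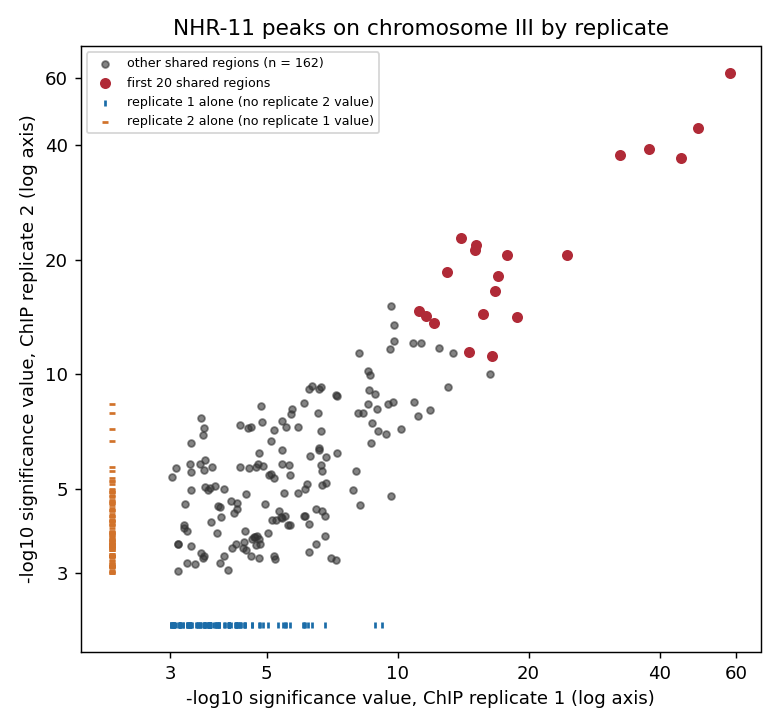
The −log10 significance values of peaks on chromosome III in replicate 1 (x) and replicate 2 (y), on log axes. Each dot is 1 of 182 shared regions, red for the first 20. Ticks below and to the left are the 106 and 100 peaks listed in 1 replicate alone, placed by their own value at an arbitrary position on the other axis. The first 5 regions sit apart at the upper right. The points spread widely at the lower left, where the log axes stretch low values.

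Spearman's rho between the replicate values was 0.69 across the 182 regions, which share the same 2 libraries, and on the other chromosomes it ran from 0.68 to 0.75. Peaks listed in 1 replicate alone do not enter this rho, so it describes the shared regions only. Of the first 10 III peaks of each list, 7 regions were common to both, as were 15 of the first 20 and 39 of the first 50. A region's places in the replicates differed by a median of 27.5, and by at most 10 in 43 of the 182. In both replicates 83 regions had values under 1e-05, and 25 of these were under 1e-10. The latter were at least 328 bp wide, with a median of 563 bp, against a median of 371 bp over all 182.

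The 5 widest disagreements in place in each direction concerned regions at places 56 to 94 of the 182 in 1 replicate and 150 to 181 in the other. The region at 11823245 to 11823516 was at place 56 in replicate 1 (5.95e-08) and place 177 in replicate 2 (0.000556), a difference of 121 places. Next came 1142851 to 1143125, at places 58 and 175 (9.09e-08 and 0.000516), and 12874681 to 12874899, at places 78 and 167 (5.41e-07 and 0.000382). The regions at 5838184 to 5838590 and 6898542 to 6898830 completed the 5 largest in that direction. All 5 lay between 219 and 407 bp in width.

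In the other direction, the region at 4491419 to 4491808 was at place 165 in replicate 1 (0.000291) and place 56 in replicate 2 (2.03e-08), and there the peaks overlapped by 93 bp only. The region at 1419556 to 1420170 was at places 160 and 65 (0.000258 and 6.19e-08), and its peaks coincided over 95.8% of its span. The regions at 13616718 to 13617017 (places 168 and 74), 8658218 to 8658688 (163 and 71) and 9857172 to 9857531 (181 and 94) followed.

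The 182 regions were selected by overlap of their replicate peaks, so the distances that follow describe them and cannot show agreement. The centres of the replicate peaks lay a median of 20.75 bp apart, and 142 of 182 were within 50 bp. Starts differed by a median of 27 bp and ends by 29 bp. The replicate peaks coincided over a median of 83.1% of the merged region, and over 89.2% in the first 20. Peak widths had a rho of 0.83 between replicates across the 182 regions. The largest distance between centres, 387.5 bp, was at the region from 13463398, where the replicate 1 peak began 714 bp before that of replicate 2.

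Only 9 shared regions exceeded 1000 bp, and the 5 widest were examined one by one. After the region from 13463398 came 13718269 to 13719552 (1284 bp; 5.36e-08 and 1.67e-09). The others were 8801404 to 8802569 (1166 bp), 5013307 to 5014470 (1164 bp) and 8799675 to 8800806 (1132 bp). The region at 5013307 to 5014470 was at place 12 in replicate 1 (5.25e-17) and place 31 in replicate 2 (9.54e-11), and its peaks coincided over 51.5% of the span. All 9 regions over 1000 bp were among the first 56 of the 182 by summed place. The last of them in that order was at 7729151 to 7730159 (1009 bp; 2.74e-07 and 1.25e-08).

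The third question was where on the chromosome the shared regions lay. Chromosome III held 15.0% of all shared regions (13.1 to 17.2%) on 13.8% of the length, or 13.2 per Mb against 12.1 over all chromosomes. The middle of 3 equal parts of III, from 4593751 to 9187500, held 74 of the 182 (40.7%, 33.5 to 48.2%), the left part 49 (26.9%, 20.6 to 34.0%) and the right part 59 (32.4%, 25.7 to 39.7%). The intervals of the 3 parts overlap, but the shares divide the same 182 regions, so this overlap does not show that they are alike. The difference between the parts was not tested. Of the first 20 regions, 8 lay in the middle part. The middle share of the other chromosomes went from 31.7% on X to 52.9% on II.

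Over the 13 complete 1 Mb bins the median was 15 shared regions. The bin from 7 to 8 Mb held the most, 19, and the other bins from 4 to 9 Mb held 15 to 18. Counts as high were found further right, with 17 from 10 to 11 Mb and 15 from 12 to 13 Mb. The bin from 2 to 3 Mb held the fewest, 4, with 7 peaks in replicate 1 and 11 in replicate 2. Its series-list count of 43 was within the range of 34 to 75 over the complete bins. Of its 4 regions the strongest was at 2785715 to 2786189, with 4.01e-10 and 1.12e-07. The bins from 9 to 10 Mb and 11 to 12 Mb had 8 shared regions each, and in the latter the 11 peaks of replicate 1 alone outnumbered them. The mean −log10 value of the replicates, which averages 2 lists of unknown depth, had its highest bin median in the last, incomplete bin (7.64 over 11 regions). The lowest bin median was in the first bin (4.34 over 10 regions).

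**Figure D4:**
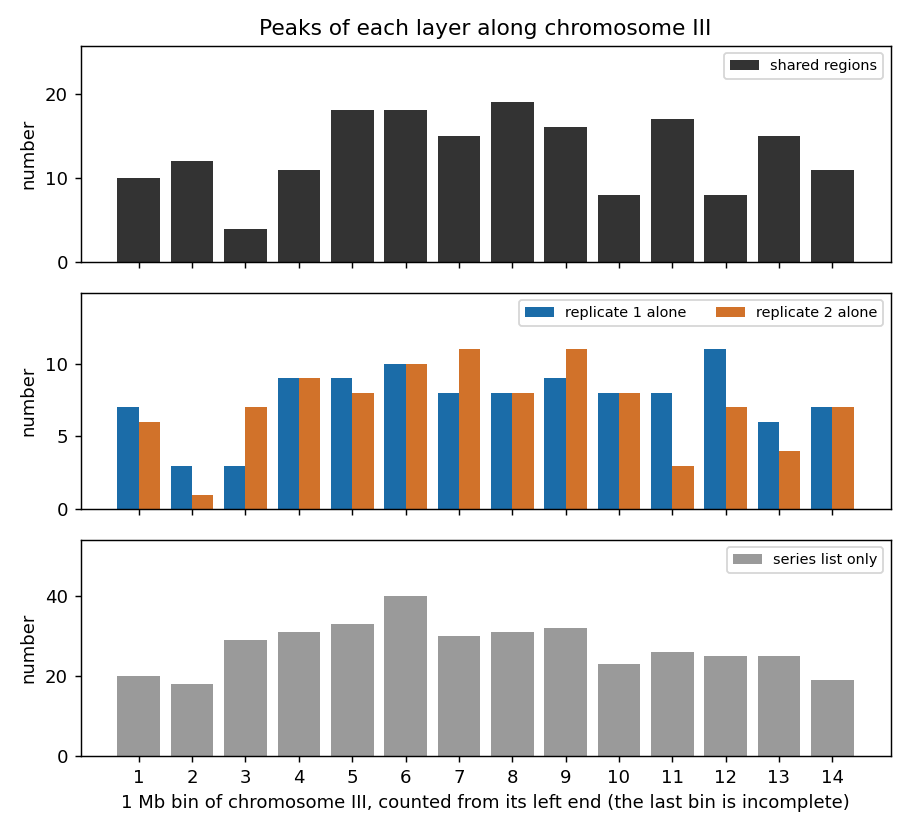
Number of members of each layer in successive 1 Mb bins of chromosome III, counted from its left end. The panels show shared regions, peaks of 1 replicate alone and series peaks without a replicate peak. Shared regions number 15 to 19 in bins 5 to 9, 17 in bin 11, 15 in bin 13 and 4 in bin 3, and series-only peaks number 18 to 40 in the complete bins.

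The longest stretch without a shared region, 475307 bp from 11317268 to 11792574, was not empty. It held 4 peaks of replicate 1, 5 of replicate 2 and 21 of the series list. The median gap between neighbouring shared regions was 49261 bp, and the smallest was 218 bp, between 13462860 to 13463179 and the broad region that begins at 13463398. A single series peak of 2481 bp, at 13462824 to 13465304 (8.35e-43), covered that pair.

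Many regions had close neighbours. A distance of at most 10000 bp to another shared region was found for 79 of 182 (43.4%, 36.1 to 50.9%), and of at most 2000 bp for 30 (16.5%, 11.4 to 22.7%). On the other chromosomes the first share went from 34.4% on V to 54.3% on I. Joined at 10000 bp, the regions of III formed 103 single regions, 27 pairs, 5 groups of 3 and 2 groups of 5.

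One group of 5 spanned 5810 bp from 1920974 to 1926783, and its regions covered 58.9% of that span. From left to right, the first region (885 bp) had 6.10e-12 in replicate 1 and 2.06e-15 in replicate 2. The second had 7.01e-05 and 0.000311, and the third 1.22e-06 and 5.59e-08. The fourth was the strongest, with 9.74e-14 and 2.86e-19, and the fifth had 1.28e-05 and 1.79e-06. Strong and weak regions thus stood side by side within a few kilobases in both lists. Each replicate list and the series list had exactly 5 peaks there.

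The other group of 5 was looser, with 20631 bp from 8781939 to 8802569 and 17.6% of it covered. Replicate 1 had 5 peaks there, replicate 2 had 6 and the series list 7. Its first members, at 8781939 to 8782281 (5.57e-06 and 7.33e-05) and 8785353 to 8785619 (3.16e-06 and 5.65e-05), were weak and under 350 bp wide. The other 3, from 8795442 to 8802569, were all among the first 20 regions. The region at 8795442 to 8796156 had 2.44e-12 and 5.50e-15. The region at 8799675 to 8800806 had 9.44e-16 and 5.97e-22 and was followed, 597 bp further on, by the region at 8801404 to 8802569 (1.55e-18 and 2.87e-21). The strongest values of this group therefore sat at its right end in both replicates.

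**Figure D5:**
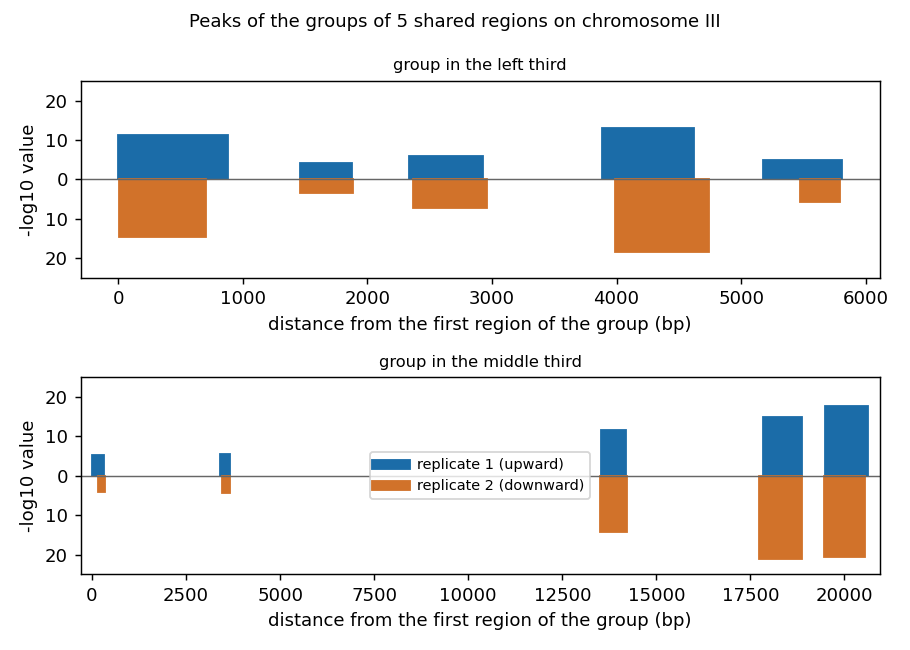
Peaks of the groups of 5 shared regions, by distance from the first region of the group (bp). Bar width is the peak width, and bar height is the −log10 value, upward for replicate 1 and downward for replicate 2. In the upper group strong and weak regions stand side by side over 5810 bp, and in the lower one the 3 strongest lie at the right end of 20631 bp.

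The 5 groups of 3, described after their values were seen, spanned between 3433 and 10368 bp. The most compact, at 13716120 to 13719552, was 72.4% covered and included the region with 2 replicate 1 peaks. The group at 13060961 to 13070823 held places 16 and 22 of the shared regions by summed place. The remaining groups were at 5752381 to 5758967, 6398183 to 6405621 and 7179665 to 7190032.

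The fourth question was what the peaks of 1 replicate alone looked like. Most were weak and narrow: the median value was 0.000196 in replicate 1 and 0.000192 in replicate 2, against 2.47e-06 and 1.94e-06 for shared peaks. Of the 106 in replicate 1, 18 lay in the stronger 50% of its III list, as did 22 of the 100 in replicate 2. They were seldom near misses. The nearest peak of the other replicate lay a median of 10569 bp away for replicate 1 and 16274 bp for replicate 2, and within 500 bp for only 2 and 3 peaks.

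The strongest peak of replicate 1 alone, at 4378561 to 4378918 (6.02e-10), was at place 39 on III, and no replicate 2 peak lay within 35142 bp of it. The next, at 10848748 to 10849067, had 1.33e-09. The peak at 832533 to 833331 (1.50e-07) came after these and ended 179 bp before a replicate 2 peak that belongs to the shared region at 833511 to 834123. One series peak, at 832117 to 834107 (1.36e-21), spanned both. The peaks at 2532678 to 2533130 (4.51e-07) and 10214402 to 10214782 (5.90e-07) completed the first 5.

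In replicate 2 the strongest was at 7099977 to 7100220, with 4.67e-09 and place 46 on III. The peak at 5567096 to 5567785 (1.25e-08) was second and the peak at 3801173 to 3801881 (6.53e-08) came next. The latter lay 3308 bp from a replicate 1 peak listed alone, at 3797152 to 3797864 (0.000202). The last 2 of the first 5 were at 11641126 to 11641625 (2.19e-07) and 9781674 to 9781993 (1.92e-06). All 5 of these, and the 5 of replicate 1, had a peak in the series list.

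The last question was how the series list compared. Each of the 182 shared regions had exactly 1 series peak over it. Series peaks reached to or past both ends of 141 regions. Since the same ChIP libraries are the only ones in the series, this list is no separate evidence for a site.

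Of the peaks of replicate 1 alone, 95 of 106 (89.6%, 82.2 to 94.7%) overlapped a series peak, against 85.2% over all chromosomes. For replicate 2 alone it was 88 of 100 (88.0%, 80.0 to 93.6%), against 86.9%. Both shares were near their background. Those missing from the series list were mostly very narrow, with medians of 15 bp over 11 peaks and 35.5 bp over 12. In each set 8 were under 50 bp, and the widest measured 220 bp and 211 bp. Those missing included a replicate 1 peak of 4 bp at 8037495 to 8037498 with a value of 8.93e-07, chosen after its value was seen.

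Of the 744 series peaks on III, 182 (24.5%, 21.4 to 27.7%) overlapped both replicates, against 17.3% over all chromosomes. Neither replicate was overlapped by 382 (51.3%, 47.7 to 55.0%), against 63.1% over all chromosomes. That share ran from 52.6% to 74.3% on the other chromosomes, of which X was nearest. The difference was not tested, and the series list is heavier on I and IV, which hold 1875 and 1777 of its 7089 peaks. By strength, 64 of the stronger 372 series peaks (17.2%, 13.5 to 21.4%) and 318 of the weaker 372 (85.5%, 81.5 to 88.9%) lacked a replicate peak. The 72 strongest series peaks on III overlapped both replicates, and the 140 strongest at least 1. None of these counts by strength was computed over all chromosomes, so they are not shown to be particular to III.

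The strongest series-only peak was at 4324082 to 4324550 (469 bp; 2.39e-10), at place 141 of the III list. Second was a 40 bp peak at 7839119 to 7839158 (7.14e-10). The peaks at 7737859 to 7738076 (1.30e-09), 11444729 to 11445222 (4.05e-09) and 8096106 to 8096172 (7.61e-09) followed. The second and the last of these were under 70 bp wide, unlike any shared region, the narrowest of which measured 148 bp. Over the 382 series-only peaks, medians were 172 bp for width and 7.97e-05 for significance. Within 500 bp of a replicate peak lay 13 of the 382.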

How the data were processed

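The authors deposited 3 peak lists, of ChIP replicate 1, ChIP replicate 2 and the series as a whole. The genome build is WormBase WS220 and the caller PeakSeq, per the file headers and the files' second column. The deposited p-values or q-values (which is not stated) were used as they are. Starts and ends were deposited as 1-based positions in bp. The aligner, the control, the threshold and how the series list was made are not given in the sources used here. Depth per sample is unknown, as the files hold no counts.

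Replicate peaks on chromosome III overlapping by at least 1 bp were merged into regions, and the strongest peak of each list stood for a region. A region's place in a replicate is the rank of its significance value among the shared regions on III. Other places are ranks within a III list, over all chromosomes or by summed place, as named. Shares have exact (Clopper-Pearson) 95% intervals that treat neighbouring peaks as independent. Correlations are descriptions, and no p-value was computed, since there is 1 group of 2 ChIP samples. Regions named are the first 20 by summed place, the 5 strongest of each other layer, the 5 widest, the 5 largest place differences in each direction, and groups of at least 4. The members, these rules and the alternatives were chosen with earlier results of these data known. Python 3.11.15, numpy 2.4.6, pandas 2.3.3, scipy 1.17.1 and matplotlib 3.10.9 were used. The code that counts overlaps and spacing was checked on simulated peaks with known answers. Genes near peaks, promoters, sequences and the input libraries were not analysed here, because no WS220 genome or annotation was used. RefSeq (WBcel235) served for the chromosome of nhr-11 and unc-119 only.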

Additional observations from a re-analysis of the deposited data

How the results depend on the processing

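Of 34 alternative values, 23 stayed within the set limits (the interval of a share, 1.5 times a count, 0.1 for rho). The others follow. Shared regions on III numbered 100 when only the stronger 50% of both lists, cut over all chromosomes, entered. They numbered 120 with a limit on values 10 times stricter. In both cases fewer peaks entered. The share of III series peaks in neither replicate was 56.7% when overlaps had to cover 50% of both peaks. It was 15.0% among III peaks in the stronger 50% of the series list, cut over all chromosomes and not within III. With a limit 10 times stricter in the series list it was 37.1%, and without series peaks under 50 bp 46.4%. With widths in place of values, rho was 0.83. Of all series peaks, 10.5% lay on III. Neighbours were found for 34.6% within 5000 bp and 16.5% within 2000 bp. Without replicate 2 a neighbour was found for 52.6% of the 289 replicate 1 peaks. Both replicate lists hold more peaks than there are shared regions, and what this does to the share was not tested. The other values with a replicate left out stayed within the limits, at 50.0% with a neighbour, 13.2 to 14.5% on III and 38.1 to 41.8% in the middle part. No paired analysis was possible because the inputs have no list here and the ChIP samples form 1 group. Without known depth, absence from a list does not show absence of binding.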

Other observations

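The widest series-only peak on III, at 13778069 to 13781250, measured 3182 bp and ended at the highest coordinate of III in the 3 lists. It was weak (0.00083, place 726 of 744), and no replicate peak lay within 30117 bp of it. The next widest series-only peak measured 817 bp, at 159932 to 160748. Both were chosen after their values were seen.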
